A study of Mus musculus with 9 samples.

Results

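Fibroblasts of 2 developmental lineages from injured mouse knees were compared 6 days after cartilage injury: Tom+ cells, which descend from the embryonic joint interzone, and Tom-GFP+ cells, which do not. The cells were chosen by measured values. A barcode was kept with at least 500 genes, at least 1000 UMIs (unique molecular identifiers, each standing for a captured RNA molecule) and at most 10% mitochondrial UMIs. It was taken as a fibroblast with at least 1 UMI of *Cd34* and 0 UMIs of *Clic5*, *Ptprc*, *Pecam1* and *Myh11*, markers of fibroblast-like synoviocytes of the lining, immune cells, endothelial cells and smooth muscle cells. This left 1829 injured fibroblasts, 1272 in 4 Tom+ libraries and 557 in 2 Tom-GFP+ libraries, of 3503 kept injured cells and 4788 kept cells in the whole series. They made up 46.7% of the 2723 kept Tom+ and 71.4% of the 780 kept Tom-GFP+ injured cells, so the gate took a different part of each lineage. The levels of the genes that chose the cells are given as a description only.

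All mice were *Gdf5-Cre;Tom;Pdgfrα-H2BGFP*, aged 11 to 12 weeks. *Gdf5-Cre* is driven by *Gdf5* regulatory sequence that is active in the embryonic joint interzone, so tdTomato (Tom) marks all later progeny of those cells, and the green H2BGFP reports activity of the *Pdgfrα* promoter in the adult cell. Injured mice had surgery on the right knee, in which the joint was opened beside the patella and the cartilage of the trochlear groove was scratched through its thickness. Joints were digested with collagenase, and live cells were sorted into Tom+ and Tom-GFP+ fractions before single-cell RNA sequencing. The steady-state libraries, 2 Tom+ and 1 Tom-GFP+, came from naive mice of the same strain. Naive and injured mice differed in age within the range given above, so age and injury cannot be told apart between the states. The study describes the Tom-GFP+ mice as matched to Tom+ mice without saying in the sources used here which. Any matching was therefore left out of the main test. Throughout, n counts libraries, and p-values rest on the spread between libraries treated as independent. A sham-operated group was not analysed here.

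The interzone is the strip of condensed mesenchyme at which an embryonic joint forms. Its *Gdf5*-expressing cells give rise to articular cartilage, ligaments and much of the synovium, whereas the remaining connective tissue of the joint has other origins in the limb mesenchyme. Adult synovial sublining contains *Cd34*+ *Thy1*+ fibroblasts of both origins, among them *Pi16*+ *Dpp4*+ cells of a kind found in many tissues and termed universal fibroblasts.

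The reporters followed the sort. A tdTom UMI was found in 91.3% to 97.7% of Tom+ fibroblasts and in 7.51% and 3.26% of Tom-GFP+ fibroblasts, and an H2BeGFP UMI in 84.3% to 94.1% and in 94.9% and 95.1%. *Thy1*, a sublining marker that the gate did not use, was detected in 66.3% to 69.7% of Tom+ and in 67.6% and 76.6% of Tom-GFP+ fibroblasts. Cells summed to between 2616404 and 9725022 UMIs per injured library, with 219 to 434 cells for Tom+ and 373 and 184 for Tom-GFP+. Some libraries stood apart. Tom+ replicate 1 was the deepest, with a median of 21007.5 UMIs per cell against 11219 to 14302 in the other 5 injured libraries, and had the most cycling cells, 25.6% against 2.09% to 11.5%. Tom+ replicate 4 held 728 CPM (UMIs per 1000000 UMIs of a library's gated cells) summed over 14 immune cell markers against 9.67 to 53.3 in the others, mainly *Lyz2* at 490.3 CPM, with *Cd3e* at 0. Tom-GFP+ replicate 2 held 104 CPM of red cell genes against 0.444 to 3.73. Endothelial and skeletal muscle marker sums were at most 6.37 CPM in every injured library. The lineage comparison was also made without each library in turn and without the cells that carried immune or red cell UMIs.

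In the comparison of 4 Tom+ with 2 Tom-GFP+ libraries, few genes passed the test, and the genes with separate levels in the lineages were mostly lower in Tom+ fibroblasts. The sort reporter tdTom, the positive control, was higher in Tom+ cells and *Gngt2* was lower. Below both Tom-GFP+ libraries in all 4 Tom+ libraries lay 8 of 15 interferon-stimulated, 7 of 19 Wnt, 4 of 16 retinoid and steroid and 4 of 19 elastic fibre genes tested, and 10 of 35 limb patterning factors lay above, none of them past the edgeR threshold. Of 11141 genes tested, 2 passed edgeR's quasi-likelihood test at a false discovery rate of 0.05 after Benjamini-Hochberg adjustment (0.018% of genes tested), 1 in each direction. There were 418 with p under 0.05 by edgeR before adjustment, less than a share of 0.05 of the genes tested. DESeq2 called 40 of 17226 (0.232%), 11 higher and 29 lower in Tom+ cells. The lower calls include the haemoglobin genes *Hba-a1* and *Hbb-bs*, at 28.3 and 36.3 CPM in Tom-GFP+ replicate 2 and at most 1.96 CPM in the other injured libraries. CPM in all 4 Tom+ libraries exceeded both Tom-GFP+ libraries for 490 genes (4.4% of the genes tested) and lay below both for 764 (6.86%). Random labels would put all 4 Tom+ libraries above in 1 of 15 arrangements and below in 1, a share of 0.0667 each. Neither observed share lies far above that, so lying apart does not by itself mark a lineage difference. The counts of list members below are to be read beside these shares. The median log2 fold change, Tom+ over Tom-GFP+, was 0.0149 over all genes tested. Log2 fold changes below have the same direction, with their standard error (SE), and the values of the libraries follow the order of replicates.

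**Figure D1:**
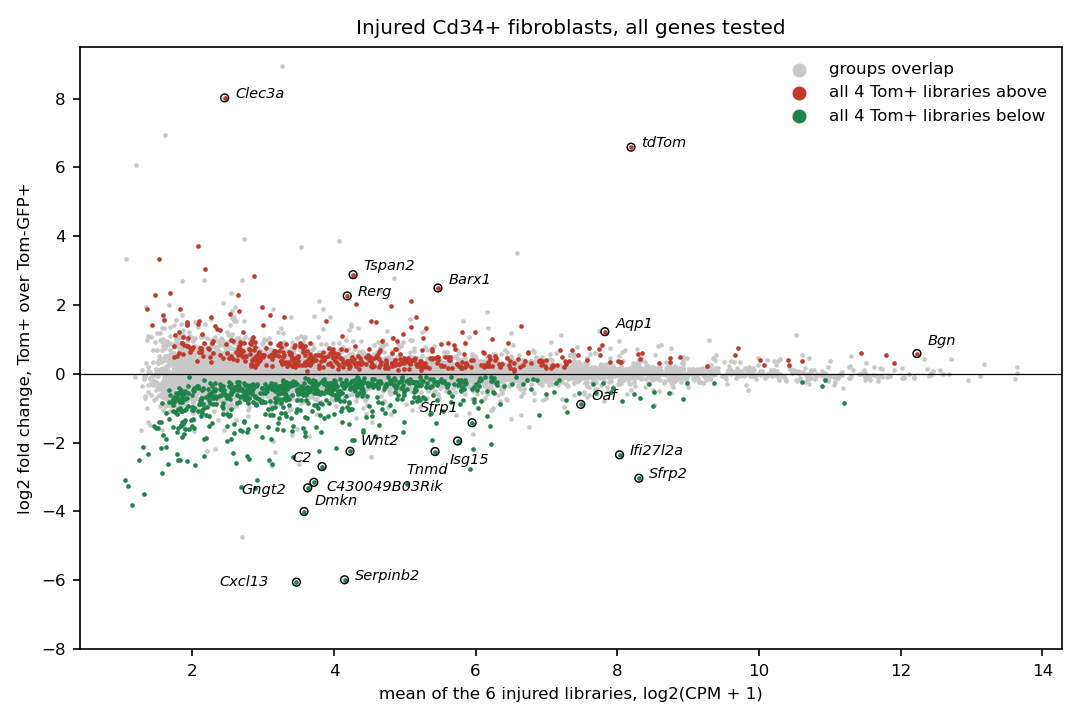
Log2 fold change of Tom+ over Tom-GFP+ injured fibroblasts (y axis) against the mean level of the 6 injured libraries as log2(CPM + 1) (x axis), each point a gene of the 11141 tested. Red points are the 490 genes with all 4 Tom+ libraries above both Tom-GFP+ libraries, green points the 764 with all 4 below, and grey points overlap between the groups; circled genes are described in the text.

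*Gngt2* encodes a gamma subunit of heterotrimeric G proteins, known from cone photoreceptors and also expressed in blood cells. It was at 2.26, 3.11, 4.57 and 1.52 CPM in the Tom+ libraries against 30.4 and 26.4 CPM in the Tom-GFP+ libraries, from 5 to 22 UMIs and from 171 and 69 UMIs per library. All 4 Tom+ libraries were low and both Tom-GFP+ libraries high, with a log2 fold change of -3.31 (SE 0.33, adjusted p = 0.0273 by edgeR). The gene (ENSMUSG00000038811) lies at chr11:95837216-95845734 on the plus strand of GRCm38 and overlaps *Abi3* on the minus strand, which had 0 to 6 UMIs per library. The call was lost without Tom+ replicate 2 (adjusted p = 0.298), Tom+ replicate 4 (0.0561), Tom-GFP+ replicate 1 (0.123) or Tom-GFP+ replicate 2 (0.0769) in the same edgeR test, while the log2 fold change stayed between -3.59 and -3.17. The positive control tdTom had the same adjusted p, set by its own edgeR p of 4.91e-06 against 4.63e-06 for *Gngt2*. The *Gngt2* call thus leaned on the sort reporter being among the genes tested. tdTom also lost its call without Tom+ replicate 2, Tom+ replicate 4, Tom-GFP+ replicate 1 or Tom-GFP+ replicate 2, and with no *Cd34* gate. The test thus had little power, and a missing call does not show like levels. In the steady state, whose libraries did not enter the test, *Gngt2* was at 14.1 and 7.56 CPM in Tom+ and 59.6 CPM in Tom-GFP+ fibroblasts.

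Wnt ligands signal through Frizzled receptors, and secreted Frizzled-related proteins (Sfrp) and Dickkopf proteins bind ligands or receptors outside the cell. Of 30 listed Wnt ligands, antagonists and feedback targets, 19 were tested, with 0 past the edgeR threshold and a median log2 fold change of -0.34. In all 4 Tom+ libraries 7 lay below and 1 above (against 6.86% and 4.4% of all genes tested). Among the ligands, *Wnt2* was at 7.92, 4.89, 10.7 and 7.89 CPM in Tom+ against 45.1 and 29.8 CPM in Tom-GFP+ libraries (log2 fold change -2.25, SE 0.29, adjusted p = 0.0983 by edgeR and 1.45e-05 by DESeq2). *Wnt16* was at 6.68 to 23.1 CPM in Tom+ against 27.4 and 41.3 CPM in Tom-GFP+ libraries. *Wnt5a* was at 4.00 to 8.74 CPM against 14.2 and 8.79 CPM, with Tom+ replicate 1 only just below Tom-GFP+ replicate 2. These ligands, named after their values were seen, lay lower in every Tom+ library, with the widest gap for *Wnt2*.

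The antagonists showed both orders. *Sfrp1* was at 39.8, 44.7, 36.0 and 34.0 CPM in Tom+ and at 86.2 and 124 CPM in Tom-GFP+ libraries (log2 fold change -1.42, SE 0.20, adjusted p = 0.136 by edgeR and 0.000114 by DESeq2). *Sfrp2* was at 35.7, 172, 72.5 and 85.3 CPM against 1087 and 438 CPM (log2 fold change -3.03, SE 0.63, adjusted p = 0.687 by edgeR and 6.28e-06 by DESeq2). Its Tom+ libraries were all low, but they and the Tom-GFP+ libraries each spread widely among themselves. *Dkk3* was higher in every Tom+ library, at 109 to 125 CPM against 65.6 and 90.6 CPM. *Sfrp4*, the list's member of highest mean level, overlapped between the lineages, at 139.6, 1385, 2708 and 4085 CPM in Tom+ against 1646 and 3980.3 CPM in Tom-GFP+ libraries.

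Interferon-stimulated genes are switched on when interferon signalling activates the STAT and IRF factors, and their products restrict viruses and present antigen. Of 16 listed, 15 were tested: 0 passed the edgeR threshold, and the median log2 fold change was -1.02. In all 4 Tom+ libraries 8 lay below both Tom-GFP+ libraries and 0 above (against 6.86% and 4.4% of all genes tested). DESeq2 called 2 of them, *Isg15* and *Irf7*, lower in Tom+ cells. The promoters of 5 of the 8 members that lay apart are shown, chosen because each holds a match to the letters searched. Those of *Irf7* and *Oasl2* held no match, and the remaining member is *Ifi27l2a*. Each line holds the 160 bases before the RefSeq transcription start (GRCm38.p6), 5′ to 3′ on the strand of the gene, with capitals marking GAAANNGAAA or its reverse complement TTTCNNTTTC, the core of the interferon-stimulated response element.
Isg15 (chr4:156200819-156200978, strand −): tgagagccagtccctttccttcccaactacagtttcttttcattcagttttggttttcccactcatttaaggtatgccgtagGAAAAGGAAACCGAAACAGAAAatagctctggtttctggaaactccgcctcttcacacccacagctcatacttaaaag
Ifit1 (chr19:34640729-34640888, strand +): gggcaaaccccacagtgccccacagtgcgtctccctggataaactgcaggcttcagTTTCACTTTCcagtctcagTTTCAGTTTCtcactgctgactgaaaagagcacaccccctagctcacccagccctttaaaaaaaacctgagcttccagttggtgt
Ifit3 (chr19:34583369-34583528, strand +): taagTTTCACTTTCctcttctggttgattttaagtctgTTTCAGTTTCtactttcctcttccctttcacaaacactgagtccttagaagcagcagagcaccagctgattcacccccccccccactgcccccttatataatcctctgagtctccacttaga
Bst2 (chr8:71537473-71537632, strand −): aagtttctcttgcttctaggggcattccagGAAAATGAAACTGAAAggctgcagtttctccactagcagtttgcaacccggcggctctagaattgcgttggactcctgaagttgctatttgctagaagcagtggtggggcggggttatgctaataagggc
Gbp3 (chr3:142559884-142560043, strand +): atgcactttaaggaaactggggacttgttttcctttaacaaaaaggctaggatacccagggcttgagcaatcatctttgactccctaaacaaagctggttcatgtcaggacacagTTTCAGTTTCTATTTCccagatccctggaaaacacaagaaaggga

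In *Isg15* 3 overlapping matches form a single run, *Bst2* and *Gbp3* have 2 overlapping matches each, and *Ifit1* and *Ifit3* have 2 separate ones. Both strands were searched over 300 bases, from 250 before the start to 50 after it. Of 13 listed genes with a RefSeq promoter, 8 held a match, 5 of the 7 with all Tom+ libraries below, 2 of the 5 that overlapped and *Rsad2*, which was not tested. For comparison, 3.99% of all 27025 genes with a promoter of this length held a match, or 3.44% of 32851 promoters. A match describes these letters and not a bound site.

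At the level of expression, *Irf7*, the factor that amplifies the response, was at 7.71, 15.6, 14.6 and 12.1 CPM in Tom+ against 65.8 and 21.4 CPM in Tom-GFP+ libraries (log2 fold change -1.81, SE 0.45, adjusted p = 0.799 by edgeR and 0.0495 by DESeq2). *Isg15*, a ubiquitin-like modifier, was at 16.1, 33.1, 14.9 and 42.8 CPM against 125 and 84.1 CPM (log2 fold change -1.95, SE 0.45, adjusted p = 0.734 by edgeR and 0.00545 by DESeq2). *Ifi27l2a* was at 41.2, 63.1, 97.5 and 232 CPM against 556 and 573 CPM, the Tom-GFP+ libraries close together and the Tom+ libraries spread from low to intermediate. *Bst2* (tetherin, which holds budding virus at the cell surface) was at 56.0 to 184 CPM against 245 and 246 CPM. The remaining 4, *Oasl2*, *Ifit1*, *Ifit3* and *Gbp3*, were at 0.411 to 12.2 CPM in Tom+ and at 9.17 to 18.7 CPM in Tom-GFP+ libraries.

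The class I antigen presentation genes on the list did not separate. *H2-D1*, whose close relatives may share reads with it, was at 407 to 809.6 CPM in Tom+ against 550.3 and 674 CPM in Tom-GFP+ libraries, and *B2m* at 337 to 505 CPM against 465 and 479 CPM. Their log2 fold changes, -0.04 (SE 0.28) and -0.10 (SE 0.21), turned positive without the *Cd34* gate, at 0.20 and 0.05. In the steady state 14 of the 15 tested members lay lower in both Tom+ libraries than in the Tom-GFP+ library, where 38.6% of all genes did, with a median log2 fold change of -1.99. *Isg15* was there at 13.1 and 11.0 CPM against 148 CPM. Tom+ replicate 4, the library with the most immune marker UMIs, had the highest *Isg15*, *Ifi27l2a* and *Bst2* of the 4 Tom+ libraries and was below both Tom-GFP+ libraries for each.

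**Figure D2:**
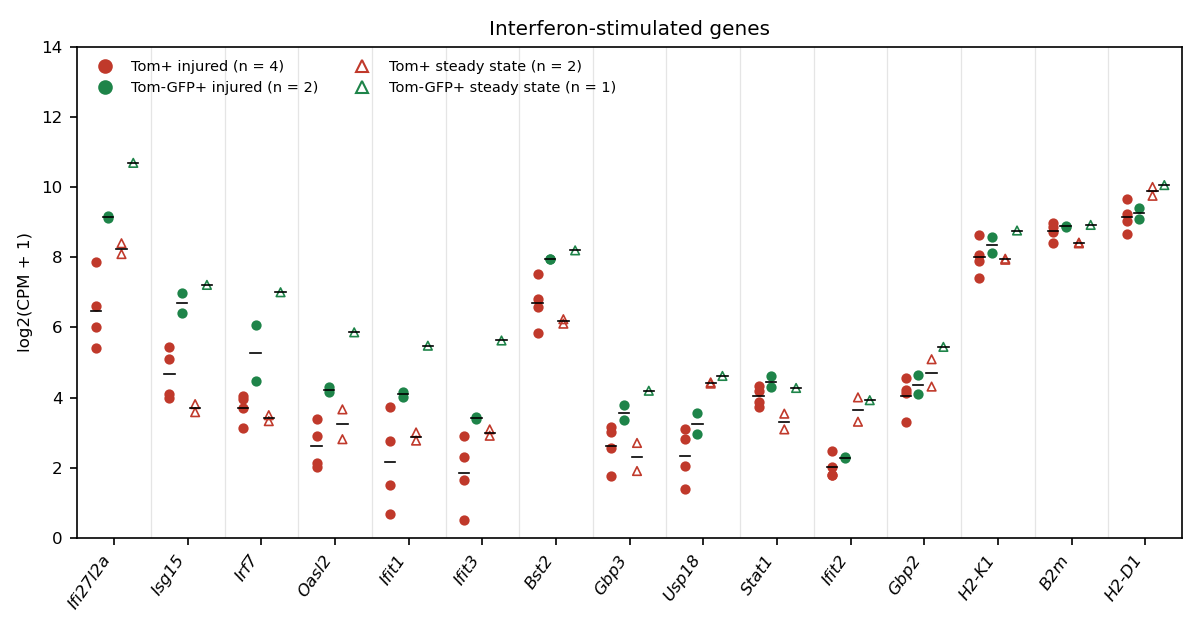
Level of the 15 tested interferon-stimulated genes as log2(CPM + 1) (y axis), ordered by log2 fold change from the most negative (left); each symbol is a library, circles injured (4 Tom+ red, 2 Tom-GFP+ green), triangles steady state (2 Tom+, 1 Tom-GFP+), and black bars are means. In 8 genes all 4 Tom+ injured libraries are below both Tom-GFP+ libraries, and *H2-D1* and *B2m* overlap.

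Patterning factors set the position and identity of limb mesenchyme and often stay on in adult fibroblasts. Of 52 limb and mesenchyme patterning factors 35 were tested, with 0 past the edgeR threshold and a median log2 fold change of 0.12. In all 4 Tom+ libraries 10 lay above and 2 below (against 4.4% and 6.86% of all genes tested). *Barx1*, a homeobox factor of joint-forming mesenchyme, was at 49.0, 63.6, 65.8 and 58.0 CPM in Tom+ against 2.84 and 20.3 CPM in Tom-GFP+ libraries (log2 fold change 2.50, SE 0.71, adjusted p = 1 by edgeR and 0.00441 by DESeq2). The Tom+ libraries lay close together, and the spread came from the Tom-GFP+ pair. *Pitx1*, the hindlimb identity factor, was at 28.0 to 39.1 CPM against 20.3 and 19.5 CPM (log2 fold change 0.72, SE 0.20). *Foxp1*, at 149 to 183 CPM against 126 and 132 CPM, and *Prrx2*, at 152 to 210.3 CPM against 121 and 146 CPM, had smaller gaps. *Sim2* had 106 UMIs over the Tom+ and 3 UMIs over the Tom-GFP+ libraries, or 5.10 and 0.364 CPM.

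The 2 factors on the list with the opposite order were *Osr1* and *En1*. *Osr1*, a factor of loose connective tissue, was at 40.5 to 63.1 CPM in Tom+ against 121 and 65.4 CPM in Tom-GFP+ libraries, so that the groups were nearly touching. *En1* was at 4.27 to 9.56 CPM against 15.1 and 17.2 CPM (log2 fold change -1.04, SE 0.30). *Prrx1*, a general limb mesenchyme factor of high mean level, overlapped at 156 to 268 CPM against 233 and 273 CPM. From the list of interzone genes, *Trps1* was at 89.0 to 109.5 CPM against 34.7 and 77.2 CPM, and *Erg*, a factor of joint chondrocytes, had 58 UMIs over the Tom+ and 2 UMIs over the Tom-GFP+ libraries. Of that list's 15 tested genes 3 lay above and 4 below in all 4 Tom+ libraries (against 4.4% and 6.86% of all genes tested), so it had no single direction. In the steady state *Barx1* was at 72.8 and 33.3 CPM in Tom+ and 3.12 CPM in Tom-GFP+ fibroblasts.

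Hox genes, which mark position along the body and limb axes, were split. Of 39 listed 12 were tested, 0 passed the edgeR threshold, and 2 lay above and 2 below in all 4 Tom+ libraries (against 4.4% and 6.86% of all genes tested). *Hoxa11* was at 4.63 to 10.4 CPM in Tom+ against 4.44 and 3.06 CPM in Tom-GFP+ libraries, and *Hoxd8* at 8.80 to 10.7 CPM against 3.91 and 7.26 CPM. *Hoxc8* was at 4.55 to 13.2 CPM against 23.5 and 14.5 CPM. *Hoxb2* was at 0.607 to 2.78 CPM against 27.4 and 4.59 CPM (log2 fold change -3.07, SE 0.70, adjusted p = 0.702 by edgeR and 0.0164 by DESeq2), and the gap rested mainly on Tom-GFP+ replicate 1. *Hoxc10*, a hindlimb gene, overlapped at 58.7 to 76.9 CPM against 69.8 and 42.4 CPM.

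Retinoic acid is made from retinol by retinaldehyde dehydrogenases and regulates patterning and connective tissue genes. Of 20 listed retinoid and steroid genes 16 were tested, with 0 past the edgeR threshold and a median log2 fold change of -0.40. In all 4 Tom+ libraries 4 lay below and 0 above (against 6.86% and 4.4% of all genes tested). Of the dehydrogenases, *Aldh1a2* was at 0.617 to 5.49 CPM in Tom+ against 17.6 and 6.88 CPM in Tom-GFP+ libraries, and *Aldh1a3* at 3.33 to 6.40 CPM against 20.8 and 8.79 CPM. The 2 retinoid genes of highest mean level, *Crabp2* (224 to 529 against 231 and 315 CPM) and *Rarres2* (53.3 to 377 against 458 and 273 CPM), overlapped.

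Among secreted immune factors, *Cxcl13*, a chemokine that attracts B cells, was at 0.206, 0, 0.305 and 1.52 CPM in Tom+ against 15.3 and 43.2 CPM in Tom-GFP+ libraries (log2 fold change -6.06, SE 0.81, adjusted p = 0.274 by edgeR and 1.76e-10 by DESeq2). In the steady state it was expressed in both lineages, at 129 and 114 CPM against 641 CPM. Of 31 chemokine and cytokine genes tested, 0 passed the edgeR threshold, 4 lay below in all 4 Tom+ libraries and 1 above (against 6.86% and 4.4% of all genes tested). *Ccl11* (eotaxin) was at 1.03, 9.78, 28.7 and 46.4 CPM against 105 and 53.5 CPM. Of 17 complement genes tested, 1 lay below in all 4 Tom+ libraries and 0 above (against 6.86% and 4.4% of all genes tested). That member was *C2*, a protease of the classical pathway, at 1.44, 4.22, 7.62 and 6.37 CPM against 36.1 and 23.7 CPM (log2 fold change -2.69, SE 0.55, adjusted p = 0.649 by edgeR and 0.0025 by DESeq2). *Il1rl2*, the receptor for interleukin-36, was at 3.78 to 7.89 CPM against 23.1 and 19.1 CPM (log2 fold change -1.82, SE 0.29, adjusted p = 0.274 by edgeR and 0.00601 by DESeq2).

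Elastic fibres consist of elastin on a scaffold of fibrillin and microfibril proteins. Of 19 listed genes, all tested, 0 passed the edgeR threshold (median log2 fold change -0.26). In all 4 Tom+ libraries 4 lay below and 0 above (against 6.86% and 4.4% of all genes tested). *Efemp1* (fibulin-3) was at 14.1, 28.2, 58.2 and 43.1 CPM in Tom+ against 189 and 105 CPM in Tom-GFP+ libraries (log2 fold change -2.03, SE 0.54, adjusted p = 0.981 by edgeR and 0.0137 by DESeq2). *Eln*, elastin itself, was at 34.3 to 54.0 CPM against 84.6 and 69.6 CPM, a log2 fold change of -0.76 (SE 0.23). *Emilin2* was at 43.6 to 51.9 CPM against 64.0 and 71.1 CPM, and *Mfap4* at 72.9 to 299 CPM against 324 and 426 CPM. *Mfap5* and *Fbn1*, of the highest mean level, overlapped.

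Small leucine-rich proteoglycans bind collagen fibrils and growth factors. All 13 listed were tested, with 0 past the edgeR threshold, 3 above in all 4 Tom+ libraries and 0 below (median log2 fold change 0.54). Over all genes tested, 4.4% lay above and 6.86% below. *Bgn* (biglycan) was at 4323 to 6479 CPM in Tom+ against 3674 and 3589 CPM in Tom-GFP+ libraries, a log2 fold change of 0.59 (SE 0.23). *Lum* (lumican) was at 2433 to 4157 CPM against 2004 and 2186 CPM, and *Aspn* (asporin) at 823 to 1019.6 CPM against 585 and 664 CPM. *Dcn* (decorin) overlapped, at 4302 to 9514 CPM against 5085 and 5957 CPM. The main fibrillar collagens showed no gap: *Col1a1* was at 6977 to 9605 CPM against 8417 and 10165 CPM, and *Col3a1* at 11598 to 14848 CPM against 11693 and 13908 CPM. Of 20 network and basement membrane genes tested, 5 lay below in all 4 Tom+ libraries and 0 above.

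Markers of neighbouring cell types that the gate did not use were read as lists, beside 4.4% above and 6.86% below over all genes tested. Of 11 lining fibroblast markers, all tested, 2 lay above in all 4 Tom+ libraries, *Tspan15* at 4.25 to 9.78 CPM against 3.02 and 3.06 CPM and *F13a1* at 22.8 to 51.1 CPM against 18.0 and 15.7 CPM. *Prg4* (lubricin) was at 2954, 2315, 1110.4 and 793 CPM in Tom+ against 774 and 890.2 CPM in Tom-GFP+ libraries, and so overlapped. The summed lining list ranged from 1213 to 3371 CPM in Tom+ and was 1182 and 1340.4 CPM in Tom-GFP+ libraries. Most of this sum was *Prg4* in every injured library. Cells with a *Clic5* UMI had been left out beforehand. Of 9 tenocyte markers, *Scx*, the tendon factor, lay above in all 4 Tom+ libraries at 113, 30.2, 15.5 and 17.3 CPM against 10.5 and 10.7 CPM. *Tnmd*, a marker of mature tenocytes, had the opposite order, at 21.2, 15.8, 16.8 and 19.4 CPM against 47.1 and 132 CPM (log2 fold change -2.26, SE 0.38, adjusted p = 0.423 by edgeR and 3.79e-05 by DESeq2). The chondrocyte gene *Comp* was at 355 to 1302 CPM against 170.4 and 592 CPM, and of 14 tested chondrocyte markers 1 lay above in all 4 Tom+ libraries. None of 22 cell cycle genes or 19 immediate early and heat shock genes separated the lineages.

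Among growth factor pathways, follistatin (*Fst*), which binds activins, was at 10.9 to 34.0 CPM in Tom+ against 61.5 and 44.0 CPM in Tom-GFP+ libraries (log2 fold change -1.40, SE 0.42). *Id1*, a target of bone morphogenetic proteins (BMP), was at 26.2 to 59.4 CPM against 25.4 and 18.7 CPM. Of 23 BMP genes tested 6 lay below and 2 above in all 4 Tom+ libraries (against 6.86% and 4.4% of all genes tested), with 0 past the edgeR threshold. Of 17 TGF-beta genes tested, 1 lay above and 1 below in all 4 Tom+ libraries (against 4.4% and 6.86% of all genes tested). The ligand *Tgfb2* lay above, at 38.1 to 63.0 CPM against 27.0 and 31.7 CPM (log2 fold change 0.87, SE 0.23). Of 25 axon guidance and neurotrophic genes tested, 2 lay above and 2 below in all 4 Tom+ libraries (against 4.4% and 6.86%), with 0 past the edgeR threshold. Among them, the ligand *Ntn1* (netrin-1) was at 36.6 to 46.9 CPM against 22.4 and 31.3 CPM. *Slit3* had the reverse order at 13.1 to 21.1 CPM against 35.9 and 30.6 CPM.

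Outside the lists, genes were named from the DESeq2 calls after their values were seen. *Aqp1*, a water channel, was at 286, 281, 307 and 239 CPM in Tom+ against 84.2 and 157 CPM in Tom-GFP+ libraries (log2 fold change 1.23, SE 0.28, adjusted p = 0.649 by edgeR and 0.00848 by DESeq2). The tight junction genes *Cldn10* and *Cgnl1* were at 53.1 to 81.4 CPM against 33.6 and 24.8 CPM and at 35.3 to 52.0 CPM against 12.4 and 20.6 CPM. *Cdh13* (T-cadherin) was at 61.0 to 84.1 CPM against 25.1 and 42.4 CPM. *Tspan2*, a tetraspanin, was at 15.2 to 34.3 CPM against 1.78 and 6.12 CPM. In each of these 5 genes the lowest Tom+ library was above the higher Tom-GFP+ library, as in 4.4% of all genes tested. They were chosen from calls on the same libraries, so this adds no support.

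*Rerg*, a Ras-like GTPase, was at 21.7, 30.7, 22.6 and 17.9 CPM in Tom+ against 3.20 and 7.26 CPM in Tom-GFP+ libraries (log2 fold change 2.26, SE 0.38, adjusted p = 0.313 by edgeR and 0.000242 by DESeq2). The matricellular gene *Smoc1* was at 25.6 to 63.3 CPM against 11.6 and 18.0 CPM, and the secreted phospholipase *Pla2g2e* at 15.7 to 40.5 CPM against 4.09 and 8.79 CPM. *Clec3a*, a C-type lectin of cartilage, had 130 UMIs over the Tom+ libraries and 0 in both Tom-GFP+ libraries. The Tom+ libraries were at 6.07, 2.00, 11.3 and 7.59 CPM. Pooled over each group, with a floor of 3 UMIs for Tom-GFP+, *Clec3a* was at least 17.2-fold higher in Tom+ fibroblasts.

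Lower in Tom+ were the non-coding transcript *C430049B03Rik*, which lies at chrX:53055046-53057190 on the minus strand next to the microRNA genes *Mir322* and *Mir503*. It was at 3.70, 3.33, 2.44 and 3.64 CPM in Tom+ against 44.1 and 15.7 CPM in Tom-GFP+ libraries (log2 fold change -3.15, SE 0.38, adjusted p = 0.0983 by edgeR and 7.58e-07 by DESeq2). *Dmkn* (dermokine) was at 0.305 to 3.50 CPM against 41.9 and 17.6 CPM. *Tfpi*, the inhibitor of tissue factor, was at 2.00 to 5.16 CPM against 31.8 and 10.3 CPM, and *Spon1* (spondin-1) at 3.96 to 8.45 CPM against 21.7 and 17.6 CPM. *Oaf* had close replicates, at 139.5, 129, 136 and 145 CPM against 279.9 and 238 CPM (log2 fold change -0.89, SE 0.16, adjusted p = 0.403 by edgeR and 0.00545 by DESeq2). Other calls rested largely on a single Tom-GFP+ library: *Serpinb2* was at 92.8 and 4.59 CPM and *Wdcp* at 18.5 and 138 CPM in the Tom-GFP+ libraries, against 0.305 to 1.78 CPM and 4.85 to 13.6 CPM in the Tom+ libraries.

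**Figure D3:**
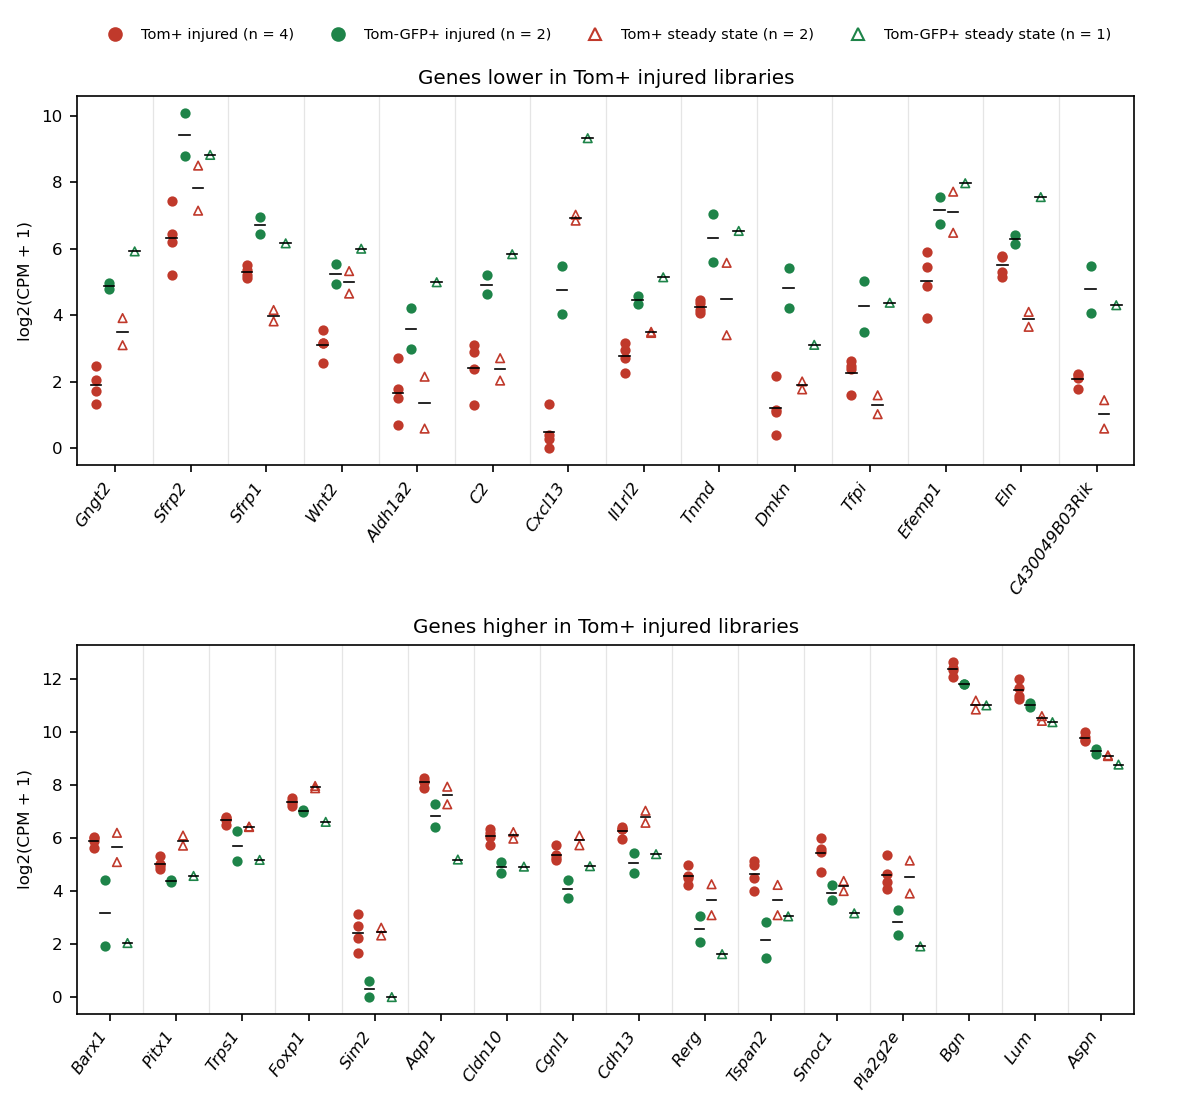
Level as log2(CPM + 1) (y axis) of genes lower (upper panel) and higher (lower panel) in Tom+ injured libraries; each symbol is a library, circles injured (4 Tom+ red, 2 Tom-GFP+ green), triangles steady state (2 Tom+, 1 Tom-GFP+), and black bars are means. *Gngt2* lies between 1.52 and 4.57 CPM in the Tom+ and at 30.4 and 26.4 CPM in the Tom-GFP+ injured libraries; *Barx1* lies between 49.0 and 65.8 against 2.84 and 20.3 CPM.

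To see whether a gene's level followed the number of cells that carried it, every fibroblast was thinned to 5000 UMIs and the share of cells with a UMI was taken per library. This kept 1239 Tom+ and 497 Tom-GFP+ cells and left out 33 and 60 shallower ones. Of 12 shares compared, adjusted together, none could pass: 4 against 2 libraries cannot give an exact two-sided permutation p under 0.0667. The share with *Barx1* was 25.4% ± 2.40 (SD, n = 4) in Tom+ and 4.96% ± 3.50 (SD, n = 2) in Tom-GFP+ fibroblasts. For *Sfrp2* it was 11.8% ± 3.68 against 38.4% ± 10.7, for *Sfrp1* 10.2% ± 1.20 against 22.0% ± 4.38, and for *Wnt2* 2.71% ± 0.784 against 9.61% ± 3.09. The CPM of these genes already lay apart in the same libraries, so their shares, taken from the same UMIs, add no separate support. These 4 shares did not overlap between the lineages and were each at exact permutation p = 0.0667 (adjusted p = 0.1). Unthinned, they were 41.1% against 9.89%, 16.2% against 46.9%, 20.9% against 30.5% and 6.49% against 16.2%, and for *Sfrp1* the libraries then overlapped, with 30.0% in Tom+ replicate 1 and 25.7% in Tom-GFP+ replicate 1.

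The level that free RNA can give was read from 53 *Ptprc*+ *Cd34*-negative cells of the same libraries, for genes that such cells do not express themselves. The 68 such cells before thinning had a median of 8447 UMIs. Among them *Barx1*, *Sfrp1* and *Wnt2* were found in 0 and *Sfrp2* in 1 (1.89%). *Gngt2* was in 1.38% ± 0.639 of Tom+ and 11.1% ± 3.60 of Tom-GFP+ fibroblasts, *Isg15* in 8.28% ± 4.43 and 19.8% ± 1.38, and *Tnmd* in 2.91% ± 1.23 and 7.06% ± 2.95, each at exact permutation p = 0.0667 (adjusted p = 0.1). The CPM of these genes likewise already lay apart in the same libraries. *Aqp1* was in 47.4% ± 10.7 and 25.8% ± 3.95 and *Ifi27l2a* in 17.8% ± 10.8 and 36.7% ± 1.41 (exact permutation p = 0.133, adjusted p = 0.16). Cells with a UMI of the cycling markers *Mki67*, *Top2a* or *Ccna2* made up 7.26% ± 6.53 and 4.58% ± 4.06 (exact permutation p = 0.8), a difference that turned direction without Tom+ replicate 1. *Gngt2* (32.1%), *Isg15* (11.3%) and *Ifi27l2a* (60.4%) were also present in the immune cells. Whether these cells expressed the 3 genes or carried them as free RNA was not tested, so they give no background for them. *Aqp1* was in 11.3% of the immune cells, *Tnmd* in 1.89%, close to its share in Tom+ fibroblasts, and a cycling marker in 11.3%, above both lineage means. Whether the immune cells carried cycling markers as free RNA or expressed them was not tested, so that share is no background for the fibroblasts.

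The *Cd34*+ gate held a different mix of cells in each library. A UMI of *Pi16* or *Dpp4*, markers of universal fibroblasts, was found in 5.85%, 19.6%, 18.1% and 35.4% of thinned Tom+ cells and in 38.8% and 40.6% of Tom-GFP+ cells (exact permutation p = 0.2, adjusted p = 0.218). Tom+ replicate 1 was lowest and Tom+ replicate 4 nearest to the Tom-GFP+ libraries. Of the 53 immune cells described above, 7 (13.2%) had such a UMI, more than in Tom+ replicate 1, so that a UMI of these genes does not by itself mark a universal fibroblast. Whether the immune cells carried it as free RNA or expressed the genes was not tested. *Pi16* itself overlapped, at 36.0, 288, 273 and 534 CPM against 488 and 582 CPM. *Dpp4* was at 5.24 to 24.0 CPM against 26.1 and 26.8 CPM, and *Cd248*, another marker of these cells, at 178 to 306 CPM against 336 and 446 CPM. Of 8 universal fibroblast markers, all tested, 3 lay below and 1 above in all 4 Tom+ libraries (against 6.86% and 4.4% of all genes tested), and 0 passed the edgeR threshold. In the steady state the share was 41.0% and 40.1% of Tom+ and 59.8% of Tom-GFP+ cells. Each gene was therefore also compared within the cells that had a *Pi16* or *Dpp4* UMI and within those that had neither.

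Several genes had like differences on both sides of this split. *Gngt2* was at 3.53 to 9.78 CPM in Tom+ against 58.4 and 43.3 CPM in Tom-GFP+ cells with a *Pi16* or *Dpp4* UMI, and at 0 to 2.62 CPM against 9.60 and 9.23 CPM in cells with neither. The log2 fold changes were -2.86 (SE 0.32) and -2.57 (SE 0.63), and the second was not called (adjusted p = 0.777 by edgeR). In each of the 6 libraries its CPM was higher in *Pi16* or *Dpp4* cells. *Sfrp2* had nearly equal log2 fold changes, -2.92 (SE 0.69) and -2.94 (SE 0.65), as had *Barx1* (2.69 and 2.72) and *C430049B03Rik* (-3.11 and -3.13).

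Other genes differed between the subsets, without a test of that difference. *Isg15* had a log2 fold change of -2.56 (SE 0.27) in *Pi16* or *Dpp4* cells, at 18.2 to 34.6 CPM in Tom+ against 210.1 and 114 CPM in Tom-GFP+ libraries, and of -1.06 (SE 0.54) in the rest. *Sfrp1* had the reverse pattern, -0.40 (SE 0.40) and -1.90 (SE 0.21). In cells with neither marker it was at 28.2 to 32.3 CPM in Tom+ against 87.1 and 139.9 CPM in Tom-GFP+ libraries. For *Eln* the log2 fold change was -0.04 (SE 0.33) in *Pi16* or *Dpp4* cells and -1.25 (SE 0.32) in the rest. *Tnmd* turned direction, 1.35 (SE 1.58) with 1 to 46 UMIs per library against -3.10 (SE 0.61).

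**Figure D4:**
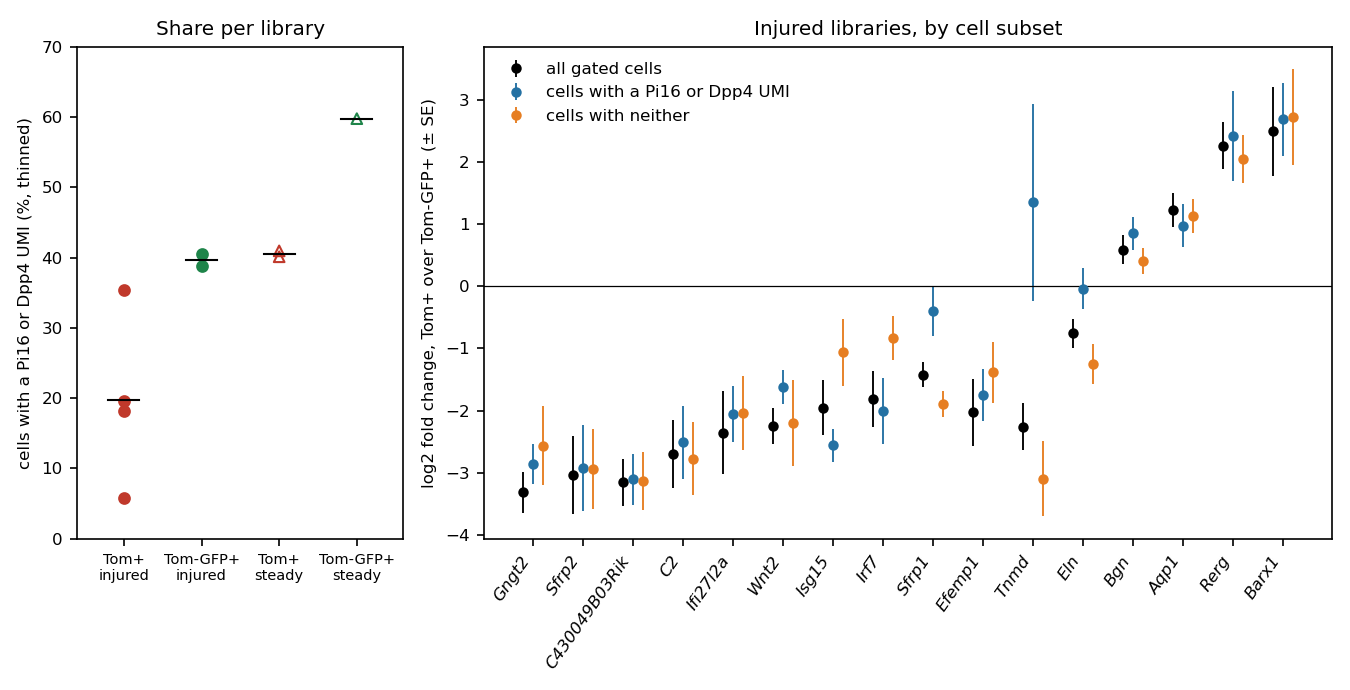
Left, share of injured and steady-state fibroblasts with a *Pi16* or *Dpp4* UMI after thinning to 5000 UMIs (percent, y axis), each symbol a library and bars the means. Right, log2 fold change of Tom+ over Tom-GFP+ injured libraries (± SE) for 16 genes in all gated cells (black), in cells with a *Pi16* or *Dpp4* UMI (blue) and in cells with neither (orange); *Gngt2*, *Sfrp2* and *Barx1* keep their direction in both subsets and *Tnmd* does not.

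The 3 steady-state libraries gave an account of the same lineages before injury that the choice of genes had not used. With 2 Tom+ libraries against 1, the Tom-GFP+ library is assumed to vary like the others. Of 11970 genes, 2 passed edgeR's test, *Eln* and *Pcdh7*, both lower in Tom+ fibroblasts (0.0167% of genes tested). The positive control tdTom was not among them, although its steady-state log2 fold change was 5.95 (SE 0.74), so few calls do not show that the lineages are alike. Without tdTom, 36 of the genes that DESeq2 called in the injured libraries were in the edgeR table, 10 higher and 26 lower in Tom+ cells. All 10 higher genes lay above the Tom-GFP+ library in both Tom+ steady-state libraries, where 27.4% of the 11141 genes did, with medians of 1.85 for the injured and 2.03 for the steady-state log2 fold change. Of the 26 lower genes, 23 (88.5%) lay below in both, where 38.6% of the 11141 genes did, with medians of -2.34 and -1.72. The exceptions were *Pola2*, *Serpinb2* and *Wdcp*.

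Single genes show the range of steady-state differences. Of those given here, *Eln*, *Foxp1* and *Smoc2* were not among the genes that DESeq2 called in the injured libraries. *Aqp1* was at 155 and 246 CPM in steady-state Tom+ against 35.7 CPM in Tom-GFP+ fibroblasts, and *C2* at 5.53 and 3.09 CPM against 56.1 CPM. *Sfrp2*, in contrast, was at 141 and 362 CPM against 452 CPM (log2 fold change -0.79, SE 0.95), closer together than after injury. *Eln* differed more in the steady state, at 11.6 and 16.1 CPM against 187 CPM (log2 fold change -3.68, SE 0.33), than in the injured knee. *Foxp1* was at 236 and 251 CPM against 97.3 CPM in the steady state, and *Smoc2*, a marker of the F6 sublining cluster, at 36.7 and 75.6 CPM against 453 CPM, whereas the injured libraries gave 45.1 to 67.1 CPM against 73.8 and 83.3 CPM.

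A test of the lineage effect between the states, injured against steady, called 0 of 11970 genes by edgeR, with 214 having p under 0.05 before adjustment, while DESeq2 called 3 (*Eln*, *Smoc2* and *Spp1*). The smallest adjusted p by edgeR was 0.373, for *Eln*. With no filter on low counts edgeR called *Eln* (adjusted p = 0.0216), and without Tom+ injured replicate 1 it called *Eln* and *Mfap4* (smallest adjusted p = 0.0282). The injured and steady-state libraries share no control libraries, but only 1 library stands for Tom-GFP+ cells of naive mice, and what is particular to it cannot be told apart from the lineage. Age also differed between the states.

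**Figure D5:**
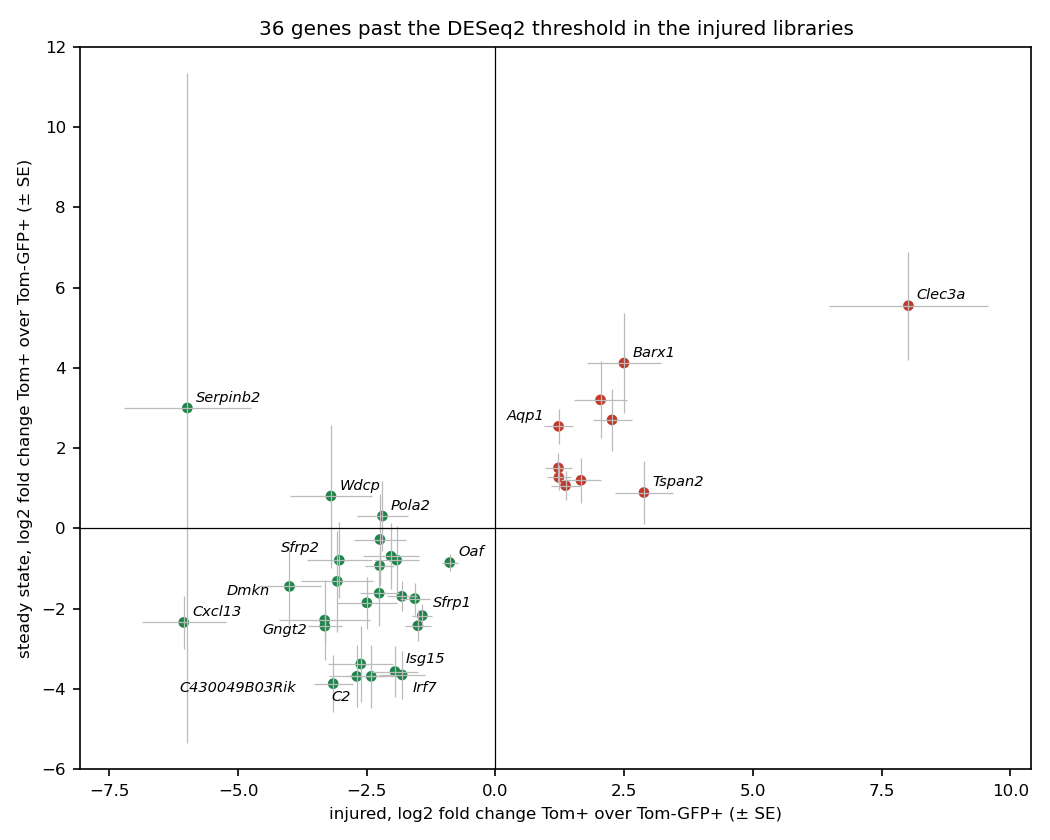
Log2 fold change of Tom+ over Tom-GFP+ fibroblasts in the injured (x axis) and steady-state (y axis) libraries, each ± SE, for the 36 genes past the DESeq2 threshold in the injured libraries, tdTom left out; red points were higher and green points lower in Tom+ injured cells. The 10 red points and 23 of the 26 green points have the same sign on both axes.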

How the data were processed

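Single-cell RNA was measured in 9 libraries (10x Genomics 5' kit, version 2). The deposited counts are raw UMIs per gene and barcode, made by the authors with Cell Ranger (3.0.2 in the headers of 5 libraries, not given in the sources used here for the others) on GRCm38.p6 per the submitters' processing notes. Gene positions come from GENCODE vM21 and promoters from RefSeq. Cells were gated as described above, with no doublet removal; leaving out the highest 5% of Scrublet scores (scanpy 1.11.5) was an alternative. Libraries shared at most 0.472% of barcodes.

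UMIs of gated cells were summed per library, 26338 symbols of the form Gm plus digits were left out, and genes were tested with edgeR 4.0.16 (R 4.3.3; filterByExpr, TMM, robust quasi-likelihood F test, Benjamini-Hochberg, threshold 0.05). DESeq2 1.42.0, another scaling, other filters, gates and subsets, thinning and leaving out each library were alternatives. CPM divides by all gated UMIs. The scripts were tested on simulated data. Shares used exact two-sided permutation tests over the 15 arrangements of the injured libraries, counting differences at least as large in size. Their adjustment used scipy 1.17.1.

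Named genes were to be, at a mean CPM of at least 20 in the higher group, the 12 largest changes per direction past the threshold, at most 4 called members per list and, in lists with none, up to 2 of highest CPM. Since 1 gene passed beside tdTom, the rule gave that gene and 23 list members of highest CPM, and the other 69 genes followed were chosen after their values were seen. The cells, lists and tests were chosen with earlier results of these data known. Of the genes examined, 1 is not reported here.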

Additional observations from a re-analysis of the deposited data

Results flagged for a closer look

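In groups of 4 libraries, the distance of the highest or lowest library from its nearest neighbour was set against the group's range. Of 126 values examined, 7 had a ratio above Dixon's critical value for 4 libraries (95% level), where chance gives about 1 in 20.

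Among genes, Tom+ replicate 1 stood out with *Hoxc10* at 58.71 CPM against 74.34 to 76.9 CPM in the other Tom+ injured libraries, and with *Scx* at 113.2 CPM against 15.55 to 30.23 CPM. Tom+ replicate 3 was low in *Dkk3*, at 109.1 CPM against 123.1 to 125 CPM, and in *Cdh13*, at 60.96 CPM against 80.9 to 84.11 CPM. Tom+ replicate 4 had *Prrx2* at 210.3 CPM against 152.1 to 161.7 CPM.

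Of the marker sums, F5 fibroblast markers (*C7*, *Fmo2* and *Kitl*) were at 6.067 CPM in Tom+ replicate 1 against 11.33 to 12.14 CPM. Immune cell markers were at 727.9 CPM in Tom+ replicate 4 against 9.666 to 53.34 CPM. When any 1 of the 6 injured libraries was left out, *Hoxc10*, *Scx*, *Dkk3*, *Cdh13* and *Prrx2* kept the direction of their lineage difference.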

How the results depend on the processing

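Of 2233 values of 95 genes under other settings, 2096 kept direction and side of the threshold, 97 passed it newly, 13 lost it and 27 reversed. The cause was not tested for any change. Counts higher and lower in Tom+ injured fibroblasts, 1 and 1 as reported, were 11 and 29 with DESeq2, 2 and 6 with no filter on low counts or with thinned cells, 1 and 3 with all 9 libraries in the fit or without cells carrying immune or red cell UMIs, 0 and 0 with no *Cd34* gate, 1 and 2 with *Thy1*+ cells, 1 and 4 without cycling cells, 3 and 9 in *Pi16* or *Dpp4* cells, 1 and 0 without *Isg15* or *Ifit3* cells, and 0 to 1 and 0 to 4 when a library was left out. *Gngt2* was not called by edgeR with no *Cd34* gate (log2 fold change -2.369, adjusted p = 0.179) or without *Isg15* or *Ifit3* cells (-2.574, 0.144). The settings on immune, red cell, *Isg15* or *Ifit3* UMIs were chosen after seeing the data.

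The lineages share replicate numbers 1 and 2, and deviations from the lineage mean correlated at r = 0.38 and 0.00166 in same-numbered libraries. For Tom+ replicate 4 and Tom-GFP+ replicate 2, r was 0.481. The deviations of the Tom-GFP+ libraries mirror each other, so these values cannot show pairing. The labels do not tie the numbers to a mouse, so they were not taken as pairs. With a replicate block, in which Tom+ replicates 3 and 4 each stood alone, 39 genes were higher and 64 lower.

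Steady-state calls, 2 as reported, were 25 with DESeq2, 13 with no filter and 0 to 35 with a library left out (0 without either Tom+ steady-state library, 35 without Tom+ injured replicate 1). Calls of a difference between states were 3 with DESeq2, 1 with no filter and 0 to 2 with a library left out.

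Reversed log2 fold changes were all within 0.4 of 0 except that of *Tnmd* (1.351 in *Pi16* or *Dpp4* cells). *Col3a1* was at -0.000486 with CPM of at least 10, -0.05945 with no *Cd34* gate, -0.02066 in *Pi16* or *Dpp4* cells, -0.07673 with the block and -0.0153 without immune or red cell UMIs. *H2-D1* was at 0.2032 and *B2m* at 0.04551 with no *Cd34* gate, and 0.1563 and 0.04632 in cells with neither *Pi16* nor *Dpp4*, where *Emilin2* was at 0.0108 and *Thy1* at 0.08187. *Mfap5* was at 0.03355 and *Fbn1* at 0.004331 in *Pi16* or *Dpp4* cells, *Col1a1* at 0.01716 and *Dcn* at -0.07836 with the block, and *Col1a1* at 0.1246 without *Isg15* or *Ifit3* cells. With a library left out, *Col3a1* ranged from -0.1074 to 0.156, *H2-D1* from -0.2492 to 0.1169, *B2m* from -0.1994 to 0.002665, *Col1a1* from -0.2167 to 0.06845, *Sfrp4* from -0.9812 to 0.3724 and *Fbn1* from -0.5398 to 0.06375. The difference in share of cycling cells (*Mki67*, *Top2a* or *Ccna2*) ranged from -0.4437 to 5.548 percentage points. Depth limits scarce genes: *Gngt2* had 5 to 22 UMIs per Tom+ library.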
